A study of Homo sapiens with 12 samples.

Results

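Keratins, nestin and lamins are the subunits of the intermediate filaments, and 9 of their genes were followed here: KRT7, KRT8, KRT18, KRT19, KRT80, NES, LMNA, LMNB1 and LMNB2. They were taken by symbol from a table of estimated read counts with 20323 genes, and each symbol stood at 1 identifier. A filter on low counts kept 12718 genes and 8 of the 9 members. KRT19 did not pass, with 1 to 9 counts per library, and it entered no test.

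Keratins pair as 1 acidic and 1 basic chain to form the cytoplasmic filaments of epithelial cells. KRT8 and KRT18 are the usual pair of simple epithelia, KRT7 is a basic and KRT19 an acidic keratin of ducts and airways, and KRT80 is a basic keratin of differentiating epithelia. Nestin, the product of NES, is a large filament protein of progenitor cells that assembles with vimentin. Lamins line the inner face of the nuclear envelope: LMNA gives lamins A and C by splicing, and LMNB1 and LMNB2 give the B-type lamins.

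The RNA came from A549, an established human lung adenocarcinoma line that is widely described as lacking functional LKB1, a kinase encoded by STK11. The 12 libraries fell into 4 groups of 3: LKB1-intact cells given PBS or high-dose AA, and LKB1-deficient cells given PBS or high-dose AA. The titles call the intact cells WT and the deficient cells con. They call AA VitC, so it was read as ascorbic acid (vitamin C), and PBS is the saline control. How the intact and deficient cells were made, whether either is 1 clone, and the dose and duration of AA were not stated in the labels. The labels do not tie replicates to separate cultures either, so the tests measure library-to-library spread, which may be purely technical. In bulk RNA, fewer cells that carry a transcript and less of it per cell cannot be told apart.

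STK11, the gene that encodes LKB1, was at 24.5 ± 0.917 CPM (counts scaled to library size, adjusted by the TMM method; mean ± SD, n = 3) in intact cells under PBS. It was at 5.78 ± 0.862 CPM in deficient cells under PBS, and the log2 difference was -2.08 (SE 0.110, edgeR adjusted p = 1.48e-10). Library totals ran from 16055534 to 20306129 estimated counts. Replicates differed by more than counting noise, with a chi-square per degree of freedom of 1.997 to 4.35. The first principal component (60.8% of the variance) separated AA from PBS libraries, and the second (15.2%) separated the genotypes under AA. The 7 epithelial markers summed to 118.5 to 129.7 CPM in PBS libraries, 209 to 223 CPM in intact AA libraries and 172.5 to 186 CPM in deficient AA libraries. Most of the sum in intact cells was ELF3, at a mean of 100.1 CPM under PBS and 175.4 CPM under AA. EPCAM, CLDN4 and CLDN7 also had higher means in intact AA. CDH1 (1.61 to 1.22 CPM), CDH3 (0.814 to 0.626) and ESRP1 (0.451 to 0.216) had lower means there. The 6 alveolar type II markers summed to at most 0.414 CPM, with SFTPD at 0 in every library, so A549 showed little of that lung identity here. The 5 haematopoietic markers summed to 0.0607 to 1.60 CPM (CD3E at 0), the 5 fibroblast markers to 11.3 to 17.0 CPM (COL1A2 at 0) and the 4 endothelial markers to 0.719 to 10.7 CPM (KDR at 0). The endothelial sum was 9.19 to 10.7 CPM in intact PBS, 3.21 to 4.29 in intact AA, 6.55 to 9.22 in deficient PBS and 0.719 to 1.68 CPM in deficient AA. CDH5 made up most of it, with means of 9.68 CPM in intact PBS, 3.71 in intact AA and 7.68 in deficient PBS. The part of these marker shifts in the results below was not tested.

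On chromosome 12 of GRCh38 (GENCODE release 29), KRT80 lies at chr12:52168996-52192000 (minus strand), KRT7 at chr12:52232520-52252186 (plus), KRT8 at chr12:52897187-52949954 (minus) and KRT18 at chr12:52948871-52952901 (plus). KRT19 lies at chr17:41523617-41528308 (minus), NES at chr1:156668763-156677397 (minus) and LMNA at chr1:156082573-156140089 (plus). LMNB1 lies at chr5:126776623-126837020 (plus) and LMNB2 at chr19:2427638-2456996 (minus). The KRT8 and KRT18 annotations overlap at their 5′ ends on opposite strands, and strand use in counting is not given in the sources used here. By name, the annotation holds 50 KRT8, 68 KRT18 and 5 KRT19 pseudogenes. No KRT8 or KRT18 pseudogene had an entry in the count table, so the values of this pair are uncertain to the extent that copies share reads. KRT7 also overlaps KRT86 on its own strand and KRT7-AS and KRT87P on the other.

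RefSeq promoter windows (GRCh38.p14) were found for 5 of the 9 members. A window is shown where its start lay at most 100 bases from the start of a principal transcript and it held at least 200 bases outside annotated exons. These are NES, which moved in opposite directions in the genotypes, and LMNB2, which fell in both. The NES bases are chr1:156677408-156677657 and the LMNB2 bases chr19:2456997-2457209, both on the minus strand and printed 5′ to 3′ towards the gene. Capitals mark GC boxes.
NES: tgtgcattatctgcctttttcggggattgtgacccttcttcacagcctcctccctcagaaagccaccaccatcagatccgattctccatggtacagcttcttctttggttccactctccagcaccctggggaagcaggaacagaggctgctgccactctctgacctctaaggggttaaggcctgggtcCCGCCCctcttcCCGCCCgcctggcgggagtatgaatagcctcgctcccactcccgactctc
LMNB2: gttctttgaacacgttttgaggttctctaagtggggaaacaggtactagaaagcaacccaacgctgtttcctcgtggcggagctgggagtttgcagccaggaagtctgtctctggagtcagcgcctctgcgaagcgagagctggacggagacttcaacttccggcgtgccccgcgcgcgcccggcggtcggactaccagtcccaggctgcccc
Both strands of the 250 bases before each start were searched for the TATA box (letters TATAAA), the CCAAT box (its own letters), the GC box (letters GGGCGG) and the E box (letters CACGTG). The same search covered AP-1 sites (letters TGANTCA), the cAMP response element (letters TGACGTCA), the ATF4 composite element (letters TGATGNAA) and the heat shock element (letters GAANNTTC). The NES window held 2 GC boxes, first bases at -62 and -50 from the start, and none of the other motifs. The LMNB2 window held 1 GC box, within the 37 exonic bases that are not printed, and none of the others. A GC box occurred in 42.6% of all 35116 windows. The printed NES and LMNB2 bases were 58.0% and 60.6% G or C. Over the full 250 bases NES was at 58.0% and LMNB2 at 66.4%, against a median of 58.0% over all windows.

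Levels of different genes were compared on deposited FPKM, which are scaled by length. In intact cells under PBS, KRT8 was highest at 787 ± 25.4 FPKM (SD, n = 3), followed by KRT18 at 538 ± 1.88, KRT7 at 385 ± 8.02 and LMNA at 299.9 ± 7.03 FPKM. LMNB1 (59.6 ± 0.558), KRT80 (53.9 ± 0.859) and LMNB2 (26.0 FPKM) formed a middle tier. NES was at 2.58 FPKM and KRT19 at 0.155 FPKM. In deficient cells under AA the order changed at the top: KRT18 was at 729.7 ± 18.3, KRT7 at 494 ± 13.3 and KRT8 at 445 ± 9.66 FPKM. There KRT80 (62.6 ± 1.61 FPKM) also stood above LMNB1 (46.3 ± 1.57 FPKM).

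**Figure D1:**
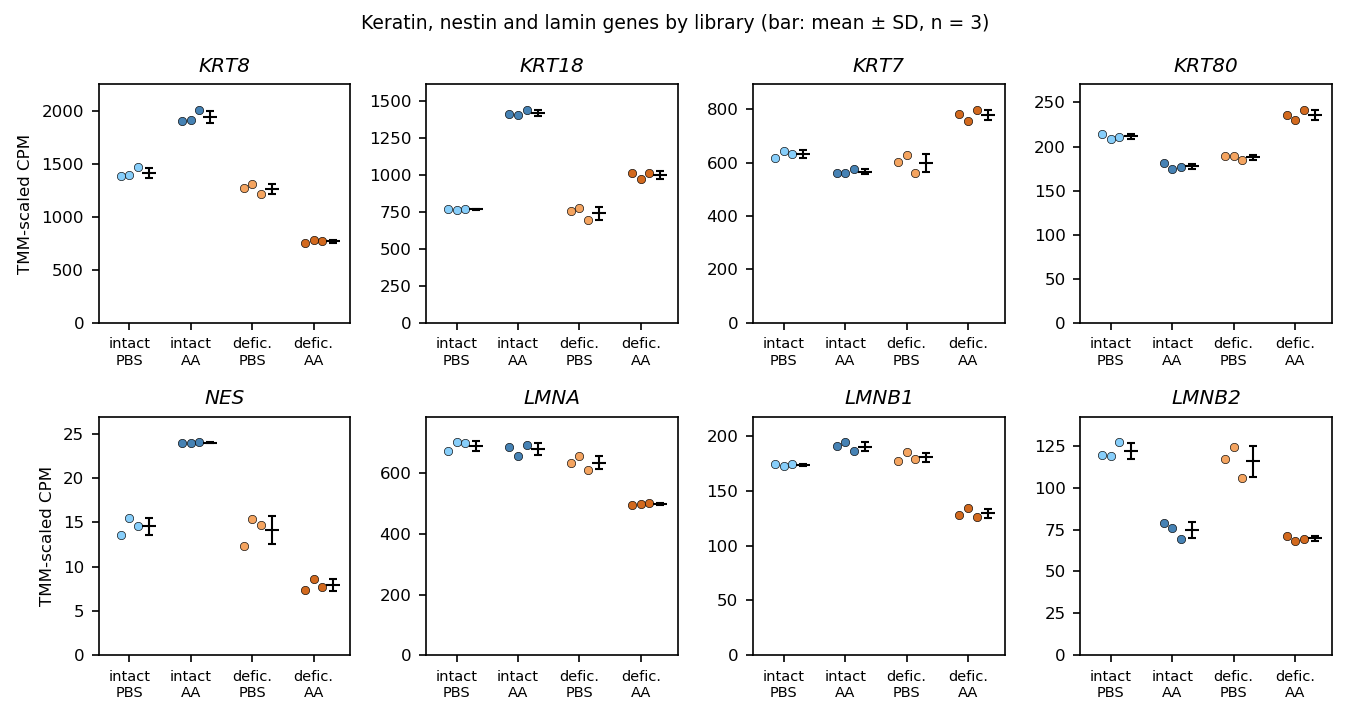
TMM-scaled CPM (vertical axis, from 0) of the 8 tested genes in each of the 12 libraries, with the mean and SD of each group of 3 beside its points. KRT8, NES, LMNA and LMNB1 were lowest in deficient cells under AA, KRT7 and KRT80 highest there, and LMNB2 was low under AA in both genotypes.

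The first question was what AA did to these genes in each genotype. In deficient cells all 8 tested members passed edgeR's quasi-likelihood test at a Benjamini-Hochberg adjusted p under 0.05: KRT7, KRT18 and KRT80 rose, and KRT8, NES, LMNA, LMNB1 and LMNB2 fell. Of all tested genes 74.4% were called in this comparison (37.0% higher, 37.4% lower), so the share of members called is near what is common in these data. The members' median log2 change was -0.41, against 0.01 over all genes. In intact cells 7 of 8 were called, beside 69.8% of all genes (34.5% higher, 35.2% lower): KRT8, KRT18, NES and LMNB1 rose, KRT7, KRT80 and LMNB2 fell, and LMNA was not called. Their median log2 change was 0.05, against 0.01 over all genes. The difference between the AA effects was called for 7 of 8 members, beside 44.6% of all genes (21.6% higher and 23.0% lower in deficient cells).

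**Figure D2:**
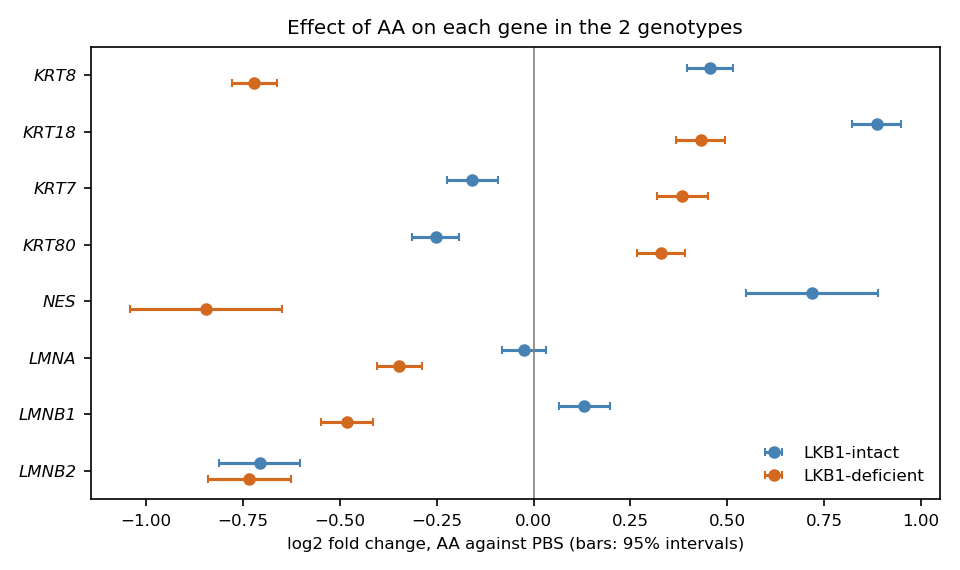
Log2 fold change of AA against PBS (horizontal axis) for each gene in LKB1-intact and LKB1-deficient cells, with bars of 95% intervals. KRT8, NES, LMNB1, KRT7 and KRT80 lie on opposite sides of 0 in the genotypes, KRT18 lies above 0 in both, and LMNB2 below 0 in both at nearly the same place.

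KRT8, the basic keratin of the simple epithelial pair, moved in opposite directions. In deficient cells it was at 1275, 1314 and 1221 CPM under PBS and 754, 783 and 776 CPM under AA. Intact cells held 1390.03, 1397 and 1473 CPM under PBS and 1909, 1916 and 2014 CPM under AA. No AA library overlapped the PBS libraries of its genotype, and the deficient AA libraries were lowest of all 12. KRT8 fell by 0.72 on the log2 scale in deficient cells (SE 0.0302, edgeR adjusted p = 4.23e-15), which is 1.65-fold. It rose by 0.46 in intact cells (SE 0.0298, adjusted p = 1.51e-11), and the effects differed by -1.18 (SE 0.0425, adjusted p = 4.78e-15).

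KRT18, its acidic partner, rose in both genotypes. It went from 755, 778 and 693 CPM under PBS to 1014, 971 and 1017 CPM under AA in deficient cells. Intact cells went from 768, 767 and 772 CPM to 1415, 1405 and 1441 CPM. The groups did not overlap in either genotype, and the intact AA libraries were highest. The log2 change was 0.43 in deficient cells (SE 0.0323, edgeR adjusted p = 7.23e-11) and 0.89 in intact cells (SE 0.0323, adjusted p = 8.83e-16). The rise was smaller in deficient cells by 0.45 (difference -0.45, SE 0.0455, adjusted p = 5.00e-08). When the trend of fold change with gene length was removed, the rise in deficient cells was 0.14.

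The ratio of KRT8 to KRT18 therefore fell under AA in every library of both genotypes. In deficient cells it was 1.69, 1.69 and 1.76 under PBS and 0.743, 0.806 and 0.763 under AA (from CPM). Intact cells had ratios of 1.81, 1.82 and 1.91 under PBS and 1.349, 1.36 and 1.397 under AA. The log2 ratio changed by -1.15 in deficient and -0.43 in intact cells. The ratio was given without a test. On FPKM it went from 1.36 to 0.610 in deficient cells and from 1.46 to 1.09 in intact cells, so per length KRT18 exceeded KRT8 only in the deficient AA group.

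KRT7 and KRT80, both basic keratins, shared a pattern opposite to that of KRT8. KRT7 was at 602, 629 and 562 CPM under PBS and 783, 757 and 798 CPM under AA in deficient cells. Its values in intact cells were 618, 646 and 635 CPM under PBS and 562, 563 and 577 CPM under AA. The deficient AA libraries were highest of all, while intact AA and deficient PBS libraries overlapped. KRT7 rose by 0.38 in deficient cells (SE 0.0336, edgeR adjusted p = 9.70e-10) and fell by 0.16 on the log2 scale in intact cells (SE 0.0337, adjusted p = 0.000282). The difference was 0.54 (SE 0.0475, adjusted p = 6.64e-09). These changes were 0.16 and -0.30 with the length trend removed, and with upper quartile scaling the fall in intact cells was -0.10.

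KRT80 was at 189.6, 189 and 184 CPM under PBS and 236, 229.6 and 241 CPM under AA in deficient cells. It was at 214, 208 and 211 CPM under PBS and 181, 175 and 177 CPM under AA in intact cells. The 4 groups did not overlap, and deficient AA stood highest and intact AA lowest. Its log2 change was 0.33 in deficient (SE 0.0312, edgeR adjusted p = 3.48e-09) and -0.25 in intact cells (SE 0.0314, adjusted p = 3.40e-07), with a difference of 0.58 (SE 0.0442, adjusted p = 7.09e-10). The changes were 0.54 and -0.09 with the length trend removed.

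KRT19 was at 2, 2 and 1 counts under PBS and 5, 5 and 5 counts under AA in deficient cells (0.0763 and 0.192 FPKM), without overlap. In intact cells it was at 1, 1 and 5 counts under PBS and 3, 9 and 4 counts under AA (0.155 and 0.234 FPKM), with overlap. It entered no test.

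**Figure D3:**
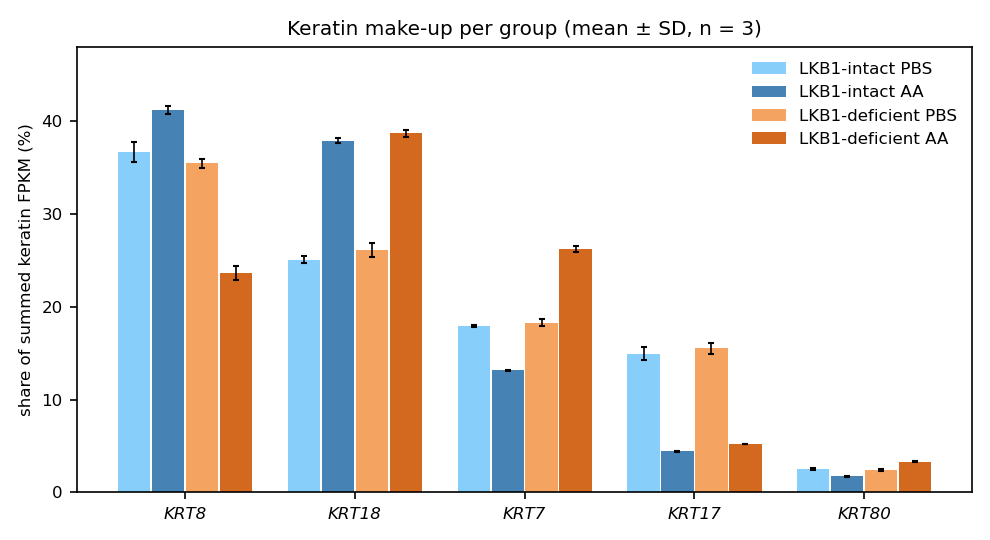
Share of the summed FPKM of 55 keratin genes (vertical axis, percent) taken by 5 keratins in each group, as the mean and SD of 3 libraries. KRT8 fell to 23.6% and KRT7 rose to 26.2% in deficient AA, while KRT17 was low under AA in both genotypes.

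As shares of the summed FPKM of all 55 keratin genes, KRT8 took 36.7% ± 1.11 in intact PBS, 41.2% ± 0.395 in intact AA, 35.4% ± 0.478 in deficient PBS and 23.6% ± 0.742 in deficient AA (SD, n = 3). KRT18 took 25.1% and 26.1% in intact and deficient cells under PBS and 37.9% and 38.7% under AA. KRT7 took 17.9% and 18.3% under PBS, 13.2% in intact AA and 26.2% in deficient AA. The summed keratin FPKM was 2145 ± 30.3 in intact PBS, 2625 ± 45.9 in intact AA, 1991 ± 85.7 in deficient PBS and 1886 ± 27.8 in deficient AA. The FPKM of all genes summed to 500366 to 514614 in PBS libraries and 540836 to 560678 in AA libraries. The keratin sums were thus not on an equal scale between treatments. KRT8, KRT18, KRT7 and KRT80 together made 80.9 to 83.8% of the keratin sum in PBS libraries and 91.3 to 94.1% in AA libraries. The remainder under PBS was mostly KRT17, an acidic keratin of basal and injured epithelium, at 14.9% and 15.5% under PBS and 4.41% and 5.22% under AA.

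NES was low in every library and turned in opposite directions. In deficient cells it was at 12.4, 15.4 and 14.75 CPM under PBS and 7.33, 8.65 and 7.70 CPM under AA. In intact cells it was at 13.6, 15.5 and 14.6 CPM under PBS and 23.9, 24.0 and 24.0 CPM under AA. The PBS groups overlapped, intact AA stood above them and deficient AA below. NES fell by 0.85 on the log2 scale in deficient cells (SE 0.1002, edgeR adjusted p = 1.16e-07) and rose by 0.72 in intact cells (SE 0.0868, adjusted p = 2.23e-07). The difference of -1.56 (SE 0.133, adjusted p = 3.84e-09) was the largest among the 8 members in this fit. Over the alternatives it ran from -1.65 to -1.07, and that of KRT8 from -1.23 to -1.12. The ranking was therefore not kept in every setting. With the length trend removed the change in deficient cells was -0.49, and on log2(FPKM + 1) it was -0.51. VIM, which encodes the filament partner vimentin, rose by 0.13 in deficient cells (SE 0.0311, adjusted p = 0.000677) and by 0.39 in intact cells (adjusted p = 3.75e-10). The VIM change in deficient cells was lost when the length trend was removed (-0.02, adjusted p = 0.644). The log2 ratio of NES to VIM changed by -0.97 in deficient and 0.34 in intact cells.

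**Figure D4:**
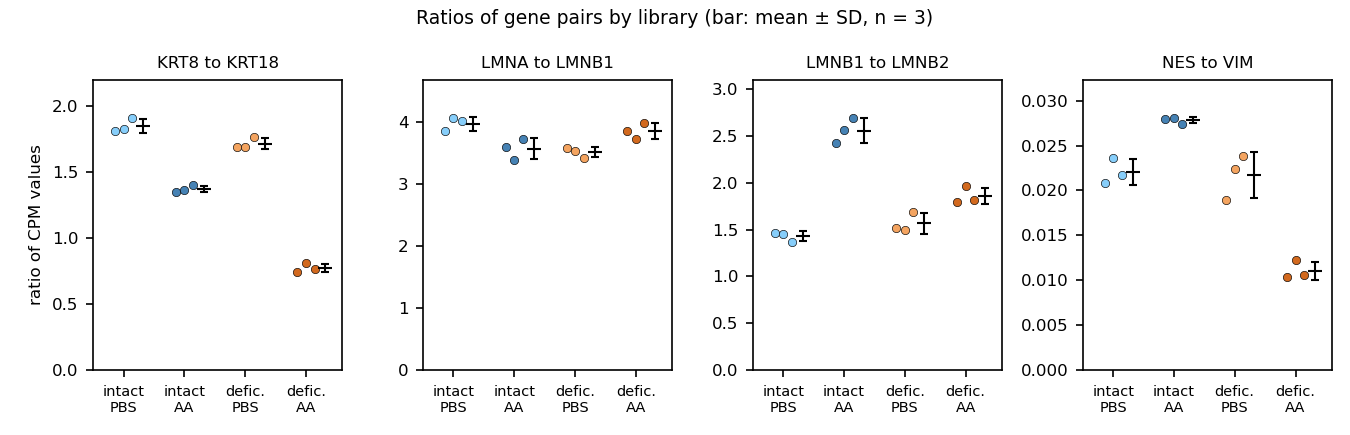
Ratios of CPM values (vertical axis, from 0) of KRT8 to KRT18, LMNA to LMNB1, LMNB1 to LMNB2 and NES to VIM in each library, with the mean and SD of each group of 3. KRT8 to KRT18 was lowest in deficient AA, at 0.743 to 0.806, and LMNB1 to LMNB2 highest in intact AA, at 2.42 to 2.69.

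LMNA, the gene of the A-type lamins, was at 635, 656.5 and 613 CPM under PBS and 496, 501 and 502 CPM under AA in deficient cells, without overlap. Its values in intact cells were 673, 703 and 699.9 CPM under PBS and 687, 659 and 695 CPM under AA, and these overlapped. LMNA fell by 0.35 on the log2 scale in deficient cells (SE 0.0296, edgeR adjusted p = 6.46e-10). In intact cells its change was -0.02 (95% interval -0.08 to 0.03, adjusted p = 0.459), and the difference of -0.32 was called (SE 0.0416, adjusted p = 1.83e-06). The transcript length implied by LMNA's count and FPKM was 2.33 ± 0.0129 kb in deficient AA and 2.24 ± 0.0265 kb in deficient PBS (SD, n = 3). In intact cells it was 2.28 and 2.25 kb under PBS and AA, and for the other 7 tested members it was the same to within 0.01 kb in every group.

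LMNB1 was at 178, 186 and 179 CPM under PBS and 129, 134 and 126 CPM under AA in deficient cells. In intact cells it was at 175, 173 and 175 CPM under PBS and 191, 195 and 187 CPM under AA. The groups of a genotype did not overlap, and deficient AA was lowest. It fell by 0.48 on the log2 scale in deficient cells (SE 0.0342, edgeR adjusted p = 3.15e-11) and rose by 0.13 in intact cells (SE 0.0333, adjusted p = 0.00145), with a difference of -0.61 (SE 0.0477, adjusted p = 1.06e-09). The rise in intact cells was 0.21 with the length trend removed.

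LMNB2 was at 117, 124 and 106 CPM under PBS and 71.4, 68.5 and 69.2 CPM under AA in deficient cells. Intact libraries were at 119, 119 and 127 CPM under PBS and 78.8, 76.0 and 69.3 CPM under AA. Every AA library was below every PBS library, and the genotypes overlapped within each treatment. The fall was 1.66-fold in deficient cells (log2 change -0.73, SE 0.0542, edgeR adjusted p = 5.96e-11) and 1.63-fold in intact cells (-0.71, SE 0.0536, adjusted p = 1.62e-10). The difference was -0.03, with a 95% interval of -0.18 to 0.12 (adjusted p = 0.804). The change in deficient cells was -0.45 with the length trend removed.

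Ratios between lamin genes were given without a test. The ratio of LMNA to LMNB1 (CPM, mean ± SD, n = 3) went from 3.51 ± 0.0809 under PBS to 3.86 ± 0.129 under AA in deficient cells, and from 3.98 ± 0.114 to 3.57 ± 0.171 in intact cells. The ratio of LMNB1 to LMNB2 went from 1.57 ± 0.108 to 1.86 ± 0.0878 in deficient cells and from 1.43 ± 0.0514 to 2.56 ± 0.136 in intact cells.

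The genotypes were next compared under each treatment; these comparisons use the same libraries as those above. Under PBS, 2 of 8 members were called, both lower in deficient cells, beside 0.275% of all genes (0.0550% higher and 0.220% lower in deficient cells). They were KRT8 at -0.16 (SE 0.0299, edgeR adjusted p = 0.0191) and KRT80 at -0.17 (SE 0.0315, adjusted p = 0.0191). Both calls were lost on FPKM, and when any one of intact PBS replicates 1, 2 and 3 or deficient PBS replicates 1 and 3 was left out. LMNA was at -0.12 (adjusted p = 0.0798) and its PBS groups did not overlap, nor did those of LMNB1 at 0.05 (adjusted p = 0.695).

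Under AA, 7 of 8 members were called, beside 59.0% of all genes (28.7% higher and 30.3% lower in deficient cells). KRT8 was 2.52-fold lower in deficient cells (log2 difference -1.34, SE 0.0304, edgeR adjusted p = 5.41e-19) and NES 3.04-fold lower (-1.61, SE 0.0932, adjusted p = 2.97e-12). LMNB1 (-0.56), KRT18 (-0.50) and LMNA (-0.45) were also lower, and KRT7 (0.46) and KRT80 (0.41) were higher, with standard errors of 0.0295 to 0.0338. LMNB2 was at -0.10 (SE 0.0557, adjusted p = 0.135), and without intact AA replicate 3 it was called at -0.15 (adjusted p = 0.0303).

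Among 50 other keratin genes 13 could be tested. In deficient cells 4 rose and 1 fell under AA (median log2 change 0.02), and in intact cells 1 rose and 7 fell (median -1.04). The called share was 38.5% in deficient and 61.5% in intact cells, beside 74.4% and 69.8% of all tested genes. The number that fell in intact cells was 4 with DESeq2 and on FPKM, and the number that fell in deficient cells was 5 without deficient PBS replicate 1 and 3 without deficient AA replicate 1. KRT17 fell in both, by 1.69 on the log2 scale in deficient cells (SE 0.0378, edgeR adjusted p = 1.18e-19) and by 1.43 in intact cells (SE 0.0371). KRT10, an acidic keratin of differentiating epidermis, rose in deficient cells by 0.53 (SE 0.0748) and was at -0.02 in intact cells (adjusted p = 0.833). The other called genes that the rule named were at low levels: KRT222 (0.65) and KRT86 (2.08) in deficient cells, and KRT34 (-1.18), KRT6B (-2.56) and KRT1 (-7.11) in intact cells. Without deficient AA replicate 2 the KRT86 call was lost (1.41, adjusted p = 0.0696). On log2(FPKM + 1) the called values were KRT222 0.33, KRT34 -0.55, KRT6B -0.89 and KRT1 -1.24.

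KRT1, a keratin of cornifying epidermis, was at 50, 68 and 62 counts in intact PBS, 0, 0 and 1 in intact AA, 0, 58 and 35 in deficient PBS and 70, 0 and 1 in deficient AA. DSG1, a desmosomal cadherin of the same layers, was chosen after its values were seen and followed the same libraries, with 39 to 65 counts where KRT1 was present and 0 or 1 elsewhere. KRT5, KRT14, KRT6A and KRT6B, keratins of stratified epithelia also named after their values were seen, stood higher in each library with KRT1 than in each library without it. KRT5 was at 309 to 818 counts with KRT1. Without KRT1 it was at 7 counts in deficient PBS replicate 1 and at 186 to 280 counts in AA libraries. KRT14 was at 5.45 and 134 to 167 counts in these, and KRT6A at 4 and 66.9 to 122.9 counts. Only 1 PBS library lacked KRT1. KRT6B was at 31.1 to 57.7 counts with KRT1 and 0 to 13.3 without. KRT16 was at 67 to 122 counts with KRT1 and 13.6 to 72 without, with overlap. Not all other keratins followed KRT1. KRT10 was at 624 to 765 counts in intact PBS, with KRT1, and 666 to 796 in intact AA, without it. KRT15 was at 49 to 68 and 71 to 83 counts in these groups. KRT1, KRT5, KRT6A, KRT6B and KRT16 made up 5 of the 7 other keratins that fell in intact cells, where all PBS libraries held KRT1 and no AA library did. In intact cells the presence of KRT1 therefore cannot be told apart from the treatment, for these genes and for the members alike. In deficient cells the members' AA effects were refitted, as an alternative chosen after seeing the data, in the libraries that held KRT1 (PBS replicates 2 and 3 against AA replicate 1) and in those that did not (PBS replicate 1 against AA replicates 2 and 3). Each fit has an arm of 1 library, which is assumed to vary like the other groups. KRT8 changed by -0.75 and -0.71, KRT18 by 0.46 and 0.40, NES by -1.04 and -0.60 and LMNB2 by -0.69 and -0.77. Values of KRT7, KRT80, LMNA and LMNB1 in these fits are not given here. KRT86 was at 1.09 with KRT1 (edgeR adjusted p = 0.279) and was called without it (adjusted p = 0.0112), and DES, the desmin gene, at 0.89 (adjusted p = 0.133) and 2.55. The calls of KRT222 and FNTA in deficient cells were lost in both fits.

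**Figure D5:**
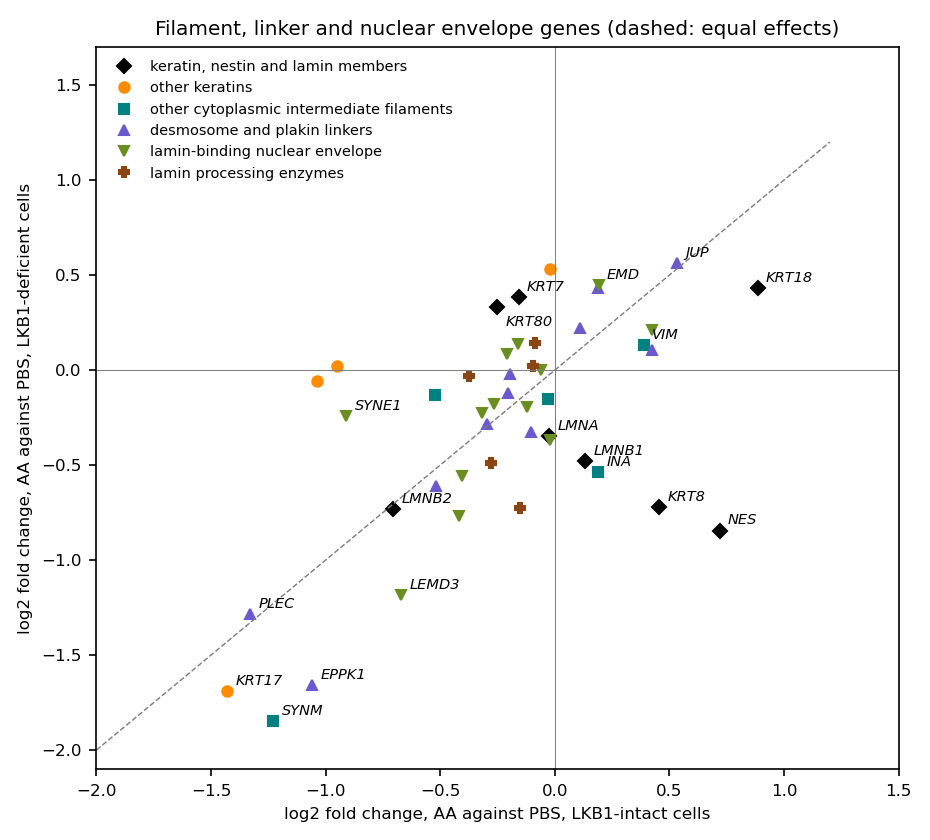
Log2 fold change of AA in LKB1-deficient cells (vertical axis) against that in LKB1-intact cells (horizontal axis) for the 8 tested members and the related genes with a mean log2 CPM of at least 3; the axes share no library, and the dashed line marks equal effects. PLEC, LMNB2 and JUP lie near the line, and KRT8, NES, KRT7 and KRT80 in the quadrants of opposite direction.

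Of 12 other cytoplasmic filament genes 7 were tested. Under AA 3 rose and 3 fell in deficient cells (median -0.13), and 4 rose and 2 fell in intact cells (median 0.19). The called share was 85.7% in each genotype, beside 74.4% of all genes in deficient and 69.8% in intact cells. SYNM, which encodes the large filament protein synemin, fell by 1.85 on the log2 scale in deficient cells (SE 0.0396) and by 1.23 in intact cells (SE 0.0379). INA, which encodes the neuronal filament protein internexin, was the one named gene here with the direction of NES: -0.54 in deficient and 0.19 in intact cells, with a difference of -0.72 (SE 0.0588, edgeR adjusted p = 2.07e-09). SYNC was at -0.13 and -0.52, and DES, at low levels, at 1.42 and 1.79 (0.42 and 0.74 on log2(FPKM + 1)).

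All 15 genes of desmosomes and plakins, which anchor keratin filaments to junctions and link filaments to each other, were tested. In deficient cells 4 rose and 6 fell (median -0.28) and in intact cells 3 rose and 10 fell (median -0.30). The called share was 66.7% in deficient and 86.7% in intact cells, beside 74.4% and 69.8% of all genes. With the length trend removed the counts were 7 and 2 in deficient cells and 7 and 4 in intact cells, so the direction of this list depended on that setting. In intact cells 6 fell without intact PBS replicate 2 and 5 on FPKM. PKP1, DSG3, DSC2 and DSC3, desmosomal genes chosen after their values were seen, made up 4 of the 10 that fell in intact cells, and there they cannot be told apart from the presence of KRT1. PKP1 was at 13 to 33 counts in libraries with KRT1 and 0 to 9 without, and DSG3 at 14 to 31 and 1 to 9 counts. DSC2 (6 to 18 and 0 to 9 counts) and DSC3 (11 to 35 and 3 to 13 counts) overlapped between these libraries. PLEC, the cytolinker plectin, was at -1.28 in deficient and -1.33 in intact cells, and the difference was 0.04 (edgeR adjusted p = 0.499). EPPK1, the keratin-binding epiplakin, fell by 1.66 in deficient and 1.06 in intact cells, with a difference of -0.60 (SE 0.0733, adjusted p = 8.78e-07). JUP, which encodes plakoglobin, rose by 0.56 and 0.53. DST, another plakin, was at -0.61 and -0.52, and both calls were lost with the length trend removed. The same setting gave -0.53 and -0.73 for PLEC and -0.85 and -0.41 for EPPK1, in deficient and intact cells. DST was at -0.19 and -0.30 on log2(FPKM + 1).

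All 14 genes of lamin-binding envelope proteins were tested. In deficient cells 3 rose and 8 fell (median -0.19) and in intact cells 2 rose and 9 fell (median -0.18). The called share was 78.6% in each genotype, near the 74.4% of all genes in deficient and 69.8% in intact cells. LEMD3, an inner membrane protein that binds A-type lamins, fell by 1.18 on the log2 scale in deficient (SE 0.0693) and 0.67 in intact cells (SE 0.0669), with a difference of -0.51 (edgeR adjusted p = 0.000163). SYNE1, a nesprin that couples the nucleus to the cytoskeleton, was at -0.24 in deficient and -0.91 in intact cells (difference 0.67, adjusted p = 2.88e-07). SYNE2, the related nesprin, was at -0.77 and -0.42, and its call in intact cells was lost with the length trend removed. TOR1AIP1, which encodes the lamin-binding protein LAP1, was at -0.37 and -0.02 (difference -0.35, adjusted p = 2.79e-05). The calls of EMD (emerin; 0.45 in deficient cells) and BANF1 (0.42 in intact cells) were lost with the length trend removed. In that fit SYNE2 (-0.21) and TOR1AIP1 (-0.20) in deficient cells and LEMD3 (-0.45) and SYNE1 (-0.50) in intact cells stayed called at smaller values. On log2(FPKM + 1) SYNE2 was at -0.46 in deficient and SYNE1 at -0.48 in intact cells.

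Of the 5 genes whose products farnesylate, cleave or methylate lamins, 1 rose and 2 fell in deficient cells and 3 fell in intact cells (5 without intact PBS replicate 3). The called share was 60.0% in each genotype, beside 74.4% of all genes in deficient and 69.8% in intact cells. ICMT, the carboxyl methyltransferase, fell by 0.49 on the log2 scale (SE 0.0313) and 0.28 (SE 0.0310). FNTB, the farnesyltransferase beta subunit, fell by 0.73 in deficient cells (SE 0.0889) and was at -0.15 in intact cells (edgeR adjusted p = 0.112), with a difference of -0.58 (adjusted p = 0.000548). ZMPSTE24, the protease that matures prelamin A, was at 0.02 in deficient cells (adjusted p = 0.622) and -0.09 in intact cells (adjusted p = 0.0204), a call lost with the length trend removed, with upper quartile scaling (-0.03, adjusted p = 0.442) and without any one of intact PBS replicate 2 and intact AA replicates 1 and 2. RCE1, the other protease, was at -0.37 in intact cells, and FNTA, the farnesyltransferase alpha subunit, at 0.14 in deficient cells, the latter lost with the length trend removed and at 0.44 on log2(FPKM + 1). In intact cells the length-corrected values were -0.17 for ICMT and -0.56 for RCE1.

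Under PBS no gene of these 5 lists was called by edgeR between the genotypes, beside 0.275% of all genes. At an unadjusted p under 0.05 there were 1 other keratin, 4 desmosome and plakin genes, 2 envelope genes and 0 genes of the other lists, and DESeq2 called 1 desmosome and plakin gene lower. The share of all genes at the unadjusted threshold or called by DESeq2 was not counted. These counts therefore cannot be read as an excess. Under AA, 5 of 13 other keratins, 6 of 7 other cytoplasmic filament genes, 7 of 15 desmosome and plakin genes, 10 of 14 envelope genes and 5 of 5 processing genes were called, beside 59.0% of all genes.

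Likeness between genes was measured as the root mean square difference of log2 CPM over the 12 libraries, each gene centred on its own mean, among 9681 genes. The nearest gene was STK24 to KRT7 (0.048), TTYH3 to KRT8 (0.0811), EEF1A2 to KRT18 (0.0478) and RNF115 to KRT80 (0.0407). For the lamins it was PDIA4 to LMNA (0.0349), POLR2B to LMNB1 (0.0363) and FAM120A to LMNB2 (0.0562). NES had no gene as near, with LRG1 at 0.173 and CA12 at 0.174, and it had the lowest counts of the 8. NES also varied most, with a root mean square of 0.571 about its own mean, against 0.160 to 0.482 for the other members. The distances were not scaled to this spread.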

How the data were processed

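RNA sequencing libraries of A549 cells were grouped by the genotype and treatment in their labels, 3 per group. Per the submitters' processing notes, RSEM, StringTie 1.3.1, HISAT2 2.1.0, Bowtie2 2.2.8 and fastp 0.18.0 were among the tools. Neither genome build nor strand use is given in the sources used here. Estimated counts, of which 10.9 to 11.5% per library were not whole, and FPKM values were deposited by the authors. Counts were rounded, and edgeR's group-wise filter used a minimum count of 10. With TMM factors, 1 quasi-likelihood model of all 12 libraries (edgeR 4.0.16 in R 4.3.3) tested 5 comparisons, with Benjamini-Hochberg adjustment over 12718 genes. A gene was called at an adjusted p under 0.05, and the standard error is the log2 change over the square root of F. The fit was tested on simulated data. Keratins resemble each other, so estimated counts of single keratins are uncertain. FPKM alternatives used limma 3.58.1 on log2(FPKM + 1) or log2(FPKM + 0.1) for genes with an FPKM of at least 1 in 3 libraries. Other alternatives were DESeq2 1.42.0, limma-voom, other scalings and filters, a replicate block, removal of the length trend, the libraries of 1 comparison alone, and each library left out.

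Named were the 9 members, STK11, VIM, and from each related list up to 4 called genes of smallest adjusted p per comparison, or where none was called up to 2 of highest mean log2 CPM; not all are reported here. Likeness took genes with a mean log2 CPM of at least 3. Members and lists were chosen with earlier results of these data known. The ratio of KRT7 to KRT19 was left out because KRT19 was near the floor of 3 counts.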

Additional observations from a re-analysis of the deposited data

Results flagged for a closer look

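The effect of AA differed between deficient and intact cells by edgeR's test of the difference for 29 of the named genes. The named genes included those of smallest adjusted p in this comparison, so the count follows in part from that choice. Of all tested genes 44.6% were called in it. Values for the 29 genes are log2 changes in deficient minus those in intact cells. Among keratins, nestin and lamins these were KRT7 (0.54), KRT8 (-1.18), KRT18 (-0.45), KRT80 (0.58), NES (-1.56), LMNA (-0.32) and LMNB1 (-0.61). Among other keratins they were KRT10 (0.55), KRT17 (-0.26), KRT222 (0.89) and KRT1 (6.44). The KRT1 value rests on counts near 0 in intact AA libraries and is no bound, and without deficient AA replicate 1 it was 1.29 (adjusted p = 0.798). Its call was also lost with DESeq2 (adjusted p = 0.0752), limma-voom (0.0933) and limma on log2(FPKM + 1) and log2(FPKM + 0.1) (0.126 and 0.149). Among other filament genes they were VIM (-0.26), INA (-0.72), SYNM (-0.62) and SYNC (0.39). Among linkers they were EPPK1 (-0.60), PPL (-0.32), PKP3 (0.24) and PKP4 (0.17). The PKP4 call was lost with DESeq2 (adjusted p = 0.0517), on FPKM, with upper quartile scaling and without any one of intact PBS replicates 1 and 3, intact AA replicate 3, deficient PBS replicate 1 and deficient AA replicates 1 and 2. Among envelope and lamin processing genes they were SYNE1 (0.67), TOR1AIP1 (-0.35), LEMD3 (-0.51), SYNE2 (-0.35), ICMT (-0.21), FNTB (-0.58), FNTA (0.23), RCE1 (0.34), EMD (0.25) and BANF1 (-0.21). On log2(FPKM + 1) the calls were lost for SYNE2 (-0.15, limma adjusted p = 0.342), ICMT (-0.13, adjusted p = 0.0598) and BANF1 (-0.14, adjusted p = 0.0523), and on log2(FPKM + 0.1) the adjusted p were 0.342, 0.0607 and 0.0530. The EMD call was lost with the length trend removed (0.15, adjusted p = 0.0744). FNTA was at 0.18 (adjusted p = 0.0506) when intact PBS replicate 2 was left out, and the RCE1 call was lost with the length trend removed (0.25, adjusted p = 0.0638). No group was large enough to test a single library as an outlier.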

How the results depend on the processing

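Of 40 member results, 33 kept their direction and their side of the threshold under every alternative run for them, as did 940 of 968 single values. The members called lower in deficient cells under PBS numbered 2, and 0 with limma on either FPKM scale. Leaving out 1 library either kept these calls, lost both as given above, or added LMNA. LMNA under PBS (-0.12) was called beside KRT8 and KRT80 with DESeq2 (adjusted p = 0.0167) and without the filter. The same held with the length trend removed and without deficient PBS replicate 2. LMNA in intact cells was 0.0380 with upper quartile scaling. The LMNB2 difference was 0.0273 with library size alone, 0.0299 on log2(FPKM + 1), 0.0303 on log2(FPKM + 0.1) and 0.0414 with the length trend removed; leaving out 1 library gave -0.0875 (without deficient PBS replicate 3) to 0.0296 (without deficient PBS replicate 2), and also a positive 0.0129 without intact AA replicate 1. With the length trend removed VIM was -0.0151 and DST 0.0263 in deficient cells, and SYNE2 was 0.0200 in intact cells. The NES difference under PBS ran from -0.102 (without deficient PBS replicate 2) to 0.0484 (without deficient PBS replicate 1), with 0.00770 without intact PBS replicate 2. The cause of these changes was not tested. The same-numbered libraries of different groups showed no shared deviation (r -0.094 to 0.054 over 18 pairs, none over 0.1). Whether the numbers mark paired cultures is not stated in the labels, and 3 libraries per group cannot settle it. The replicate block gave 3 members higher and 5 lower in deficient cells and changed no member count. KRT19, at 1 to 9 counts, entered no test.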
